A study of Homo sapiens with 6 samples.

Results

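H23 is an established cell line from a human lung adenocarcinoma, and the transcriptome described here is that of H23 cells 48 h after transfection with a control siRNA. All 3 libraries labelled with the control siRNA were used, of 6 libraries in the series. The other 3 are labelled with an siRNA named HOTAIR-N and were not analysed here. HOTAIR is a long non-coding RNA. The cells were grown in RPMI1640, the siRNA was delivered with the lipid reagent RNAiMAX, RNA was taken with TRIZOL, and libraries were made with the TruSeq Stranded Total RNA kit after Ribo-Zero Gold, which removes ribosomal RNA. Each library came from a separate transfection, so the replicates show the spread between transfections of 1 cell line and not between tumours or clones. Every library came from cells that carry an siRNA and the lipid reagent, and untransfected H23 cells were not analysed here.

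Levels are given in TPM, the share of a gene's transcripts in the library after reads are divided by gene length, scaled to a fixed total, so that levels of different genes can be set side by side. Where 3 values are given, they are those of replicates 1, 2 and 3 in that order, and ± is the SD over the 3 libraries. Lung adenocarcinoma is a gland-forming carcinoma of the distal airways and alveoli. Its diagnosis rests on the alveolar lineage factor NKX2-1, the aspartic protease napsin A and simple keratins, and alveolar type II cells are the surfactant-producing cells from which many of these tumours are thought to arise. Growth of these tumours is often driven by receptor tyrosine kinases or by RAS proteins downstream of them.

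The libraries held 34715341, 35206646 and 36578681 expected counts, and 13041, 13073 and 13048 genes reached 1 TPM in them. Of 27968 genes in the table, 13085 (46.8%) had a mean of at least 1 TPM, 8361 at least 10 TPM, 1684 at least 100 TPM and 143 at least 1000 TPM. A further 7114 genes lay above 0 and under 1 TPM, and 7769 genes (27.8%) had 0 expected counts in every library, written below as no reads. Counts of list or family members at 1 TPM, or without reads, are to be set beside these shares of 46.8% and 27.8%. Among protein-coding genes alone the shares were 62.1% and 13.6%, the nearer comparison for lists of such genes. At this depth 3 counts stood for 0.163, 0.171 and 0.159 TPM at an effective length of 1000 nt. These 3 counts were set as an approximate limit for a count of 0, for counting error only, and are not a hard maximum. The libraries resembled each other closely. Pearson's r of log2 TPM across 8331 genes of at least 10 TPM and 200 nt effective length was 0.994 between replicates 1 and 2, 0.994 between 1 and 3 and 0.997 between 2 and 3, with genes not being independent replicates. The biological coefficient of variation, edgeR's estimate of the spread beyond counting noise, was 7.28% over 14546 genes and 4.86% with replicate 1 left out. The libraries also differed by gene length. The median log2 ratio of replicate 1 to replicate 2 was 0.10 for 873 genes under 1000 nt and -0.20 for 2344 genes of at least 4000 nt. For replicate 1 to replicate 3 these medians were 0.04 and -0.12, and for replicate 2 to replicate 3 they were -0.05 and 0.10. The part of these differences in any gene's spread was not tested.

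A small set of genes held much of the transcript pool. The 10 most abundant genes made up 9.20 ± 0.21% of all TPM, the 100 most abundant 31.7 ± 0.86% and the 1000 most abundant 65.5 ± 0.92%. It took 339, 392 and 356 genes to reach 50% of the TPM of replicates 1, 2 and 3. Protein-coding genes made up 95.6% of TPM. Of 19147 of them, 11881 (62.1%) reached 1 TPM, against 615 of 4317 long non-coding RNA genes (14.2%).

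The highest level was that of RNR2, the 16S ribosomal RNA of mitochondria, at 16221, 19416 and 18810.4 TPM. Its 12S partner RNR1 stood at 4040.5, 4479 and 4604 TPM, and the pair together took 2.25 ± 0.20% of TPM. Copies of the cytoplasmic 18S, 28S and 5.8S ribosomal RNAs took 0.133 ± 0.036%. Ribosomal RNA was removed before the libraries were made, so these values describe what was left and not the levels in the cells. The mitochondrial messenger RNAs were not among the genes in the table, so their levels and the share of mitochondrial transcripts as a whole are not given. All ranks and shares of TPM are among the genes in the table.

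GAPDH, which oxidises glyceraldehyde 3-phosphate in glycolysis, was the most abundant messenger RNA in the table, at 17789, 16695 and 16558 TPM. Behind it among genes of at least 200 nt effective length came RPS18, a protein of the small ribosomal subunit, at 9512, 8024 and 9962 TPM. TMSB10, a small peptide that binds actin monomers, stood at 8454, 7149 and 7474 TPM. GAPDH was above both in every library, and its lowest library lay above the highest library of RPS18. EEF1A1, the elongation factor that carries aminoacyl-tRNA to the ribosome, was at 7698, 7466 and 7759.9 TPM, and ACTB, cytoplasmic beta-actin, at 6867, 6880.5 and 6029 TPM. The ranges of TMSB10 and EEF1A1 overlapped, so their order is not resolved by 3 libraries. Of the 25 leading genes, 14 encode ribosomal proteins. The others include S100A11, a calcium-binding protein (4135 ± 247 TPM), HSP90AB1, a cytosolic chaperone (3898 ± 45.9 TPM), TUBA1B, an alpha-tubulin (3769 ± 106 TPM), ACTG1, cytoplasmic gamma-actin (3453 ± 291 TPM) and TPI1, triose-phosphate isomerase (3405 ± 98.1 TPM). RPS27, another protein of the small subunit, reached 11725 ± 536 TPM but has an effective length under 200 nt, where TPM is least certain. RPS18 and many ribosomal protein genes have near-identical pseudogenes or copied entries in the annotation, so their single-gene levels are uncertain.

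**Figure D1:**
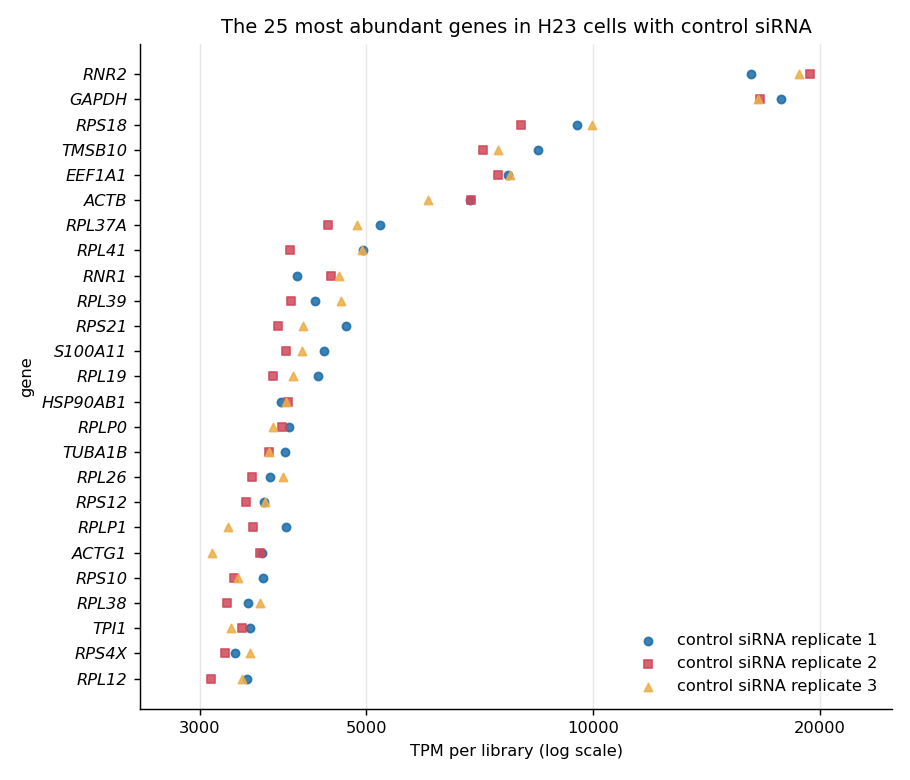
TPM of the 25 most abundant genes of at least 200 nt effective length (y axis), on a log scale (x axis), with a point for each of the 3 control siRNA libraries. RNR2 and GAPDH stand above the other 23 genes in every library, and among the lower ranks the points of neighbouring genes overlap.

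The 82 cytosolic ribosomal protein genes together made up 17.9 ± 0.91% of TPM, and 80 of them were above 10 TPM. All 78 mitochondrial ribosomal protein genes and all 37 subunit genes of respiratory complex I in the table were above 10 TPM, as were 46 of 48 proteasome genes. The most abundant members were MRPL51 (1255 ± 63.2 TPM), NDUFS5 (851 ± 44.2 TPM) and PSMB4 (972 ± 60.8 TPM). Glycolysis genes took 3.40 ± 0.07% of TPM, and 22 of 30 reached 1 TPM. The genes for the reactions after GAPDH were all abundant: PGK1 at 1089 ± 42.9 TPM, PGAM1 at 775 ± 7.90 TPM, ENO1 at 2899.8 ± 81.02 TPM and PKM at 1224 ± 56.4 TPM. Both lactate dehydrogenase genes were high, LDHB at 2819, 2839 and 3029 TPM and LDHA at 2061, 2221 and 2325 TPM, with LDHB above LDHA in every library. The glucose transporter SLC2A3 (GLUT3) was at 167, 188 and 180.1 TPM and SLC2A1 (GLUT1) at 40.6, 44.05 and 38.4 TPM. SLC2A3 exceeded SLC2A1 in every library, and SLC2A2, the glucose transporter of liver and islets, was at 0.02 TPM.

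Some genes usually restricted to brain or muscle were measured next to their general paralogs. EEF1A2, the elongation factor of neurons and muscle, was at 276, 272 and 228 TPM, far under EEF1A1 at 7641 TPM. TUBB3, the beta-tubulin used as a marker of neurons, reached 255, 230.4 and 195 TPM, against 2333 TPM for the general TUBB. Among muscle paralogs, cardiac actin ACTC1 and the cytochrome oxidase subunit COX6A2 had 0 expected counts in all 3 libraries, and cardiac myosin MYH7 was at 0.00333 TPM. ABCG2, a drug efflux pump, stood at 32.6 ± 1.74 TPM, and CYP1B1, a dioxin-inducible cytochrome P450, at 108, 133 and 116 TPM. CYP1B1 led the 66 cytochrome P450 genes, of which 12 reached 1 TPM. Of 15 metallothionein genes, which encode zinc- and copper-binding proteins, 7 reached 1 TPM, led by MT2A at 1188, 1003 and 851 TPM and MT1E at 449, 362 and 359 TPM. MT2A was highest in replicate 1 and lowest in replicate 3.

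The start sites of some leading genes were examined for sequence features. The genes printed were picked as examples, without RPS18 or ACTB, so they do not show how common a feature is among leading genes. The stretches below, taken from RefSeq (GRCh38.p14) and running from 60 bases before to 20 bases after the listed start, show 4 of the most abundant messenger RNAs and, for contrast, the surfactant gene SFTPA1, which had 0 expected counts in all 3 libraries. Capitals mark a TATA match and a pyrimidine start, both on the sense strand. A TATA match is TATAAA or TATATA lying wholly within 40 to 16 bases before the start. A pyrimidine start is a C followed by at least 4 C or T, beginning within 5 bases of the start.
EEF1A1 promoter, chr6:73521013-73521092, minus strand: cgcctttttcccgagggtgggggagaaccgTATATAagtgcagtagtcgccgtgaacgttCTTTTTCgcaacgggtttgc
RPS27 promoter, chr1:153990702-153990781, plus strand: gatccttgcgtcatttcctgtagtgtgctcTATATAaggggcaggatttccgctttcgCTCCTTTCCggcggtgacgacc
TMSB10 promoter, chr2:84905596-84905675, plus strand: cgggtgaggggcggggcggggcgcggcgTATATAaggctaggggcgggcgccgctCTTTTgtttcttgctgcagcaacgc
GAPDH promoter, chr12:6535204-6535283, plus strand: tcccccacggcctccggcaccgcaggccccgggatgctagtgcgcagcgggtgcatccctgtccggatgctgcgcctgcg
SFTPA1 promoter, chr10:79610879-79610958, plus strand: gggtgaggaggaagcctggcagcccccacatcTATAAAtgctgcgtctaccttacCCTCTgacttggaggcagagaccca
EEF1A1, RPS27 and TMSB10 held both matches, as did SFTPA1, which had no reads in any library. The stretch printed for GAPDH held neither. Only the first listed start of each gene was searched, so any GAPDH start elsewhere was not examined. The pyrimidine start is the core of the 5' terminal oligopyrimidine motif, by which translation of ribosomal protein messages is controlled. It was found in 53 of 66 ribosomal protein promoters (80.3%), against 22.2% of the 14775 protein-coding promoters in the RefSeq table. Among the 80 promoters of the 100 most abundant genes it was found in 60%, and in 38.5% of the 39 that were not of ribosomal proteins. A TATA match was found in 4.55% of all promoters and in 9 of these 80 (11.3%).

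Promoter composition differed by expression level over the whole table. In windows of 300 bases, from 250 before to 50 after the listed start, the ratio of observed to expected CpG was at least 0.6 in 66.7% of protein-coding promoters. That share was 16.5% of 1924 genes at 0 in every library, 41.1% of 3346 genes above 0 and under 1 TPM, and 76.9% of 2875 genes at 1 to 10 TPM. It was 89.0% of 5243 genes at 10 to 100 TPM and 93.1% of 1387 genes at 100 TPM or more. SFTPA1 lay at a ratio of 0.0855, and EEF1A1 at 0.891. TATA matches ran the other way at the low end, in 12.8% of the genes at 0 and 1.18% of those at 10 to 100 TPM, and were in 3.75% of those at 100 TPM or more. These shares describe the table and were not tested.

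Most alveolar type II genes were under 1 TPM in H23 cells. NKX2-1, the homeobox factor that specifies lung epithelium, was at 1.19, 1.54 and 1.06 TPM, close to the 1 TPM threshold in every library. Napsin A (NAPSA) was at 0.43, 0.41 and 0.42 TPM, under 1 TPM in all 3. Of 13 alveolar type II genes, 3 reached 1 TPM: LPCAT1, which remodels the phospholipid of surfactant (14.2, 15.02 and 14.3 TPM), the lipid transporter ABCA3 (5.70, 5.63 and 4.54 TPM) and LAMP3, a protein of lamellar bodies (1.10, 1.84 and 1.25 TPM). The genes that encode surfactant proteins were at the floor. SFTPA1, SFTA2 and PGC had 0 counts in every library, and SFTPB, SFTPC, SFTPD and SFTPA2 had means of 0.0133, 0.0167, 0.0333 and 0.02 TPM. In cells labelled as lung adenocarcinoma, the alveolar type II genes were thus at or under 2 TPM, apart from LPCAT1 and ABCA3.

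Other lung factors were uneven. ID2, an inhibitor of basic helix-loop-helix factors found in distal lung tips, was at 104, 105 and 109.7 TPM, and ETV5, an ETS factor induced by FGF signalling, at 28.6, 33.2 and 30.4 TPM. SOX9, also of distal tips, was at 8.25 ± 0.92 TPM, and the pioneer factor FOXA1 at 1.85 ± 0.257 TPM. FOXA2 was at 0.153 TPM and GATA6 at 0.67 ± 0.233 TPM. In all, 8 of 15 lung transcription factors reached 1 TPM, against 46.8% of all genes and 62.1% of protein-coding genes. Among 9 alveolar type I genes 5 did so, led by the caveolins CAV1 (263, 306 and 287 TPM) and CAV2 (27.00 ± 2.08 TPM), which many other cell types also express. The membrane protein EMP2 was at 10.2 ± 0.663 TPM, RTKN2 at 3.82 ± 0.716 TPM and AGER, the receptor for glycation end products, at 2.67 ± 0.136 TPM. The water channel AQP5 and PDPN were at 0.0533 TPM and 0.

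Airway and squamous genes were at the floor, with a few exceptions. FOXJ1, the master factor of motile cilia, was at 23.2, 20.7 and 17.6 TPM while the ciliary dynein DNAH5 was at 1.22, 1.15 and 1.25 TPM. The club and goblet cell products SCGB1A1, SCGB3A1, SCGB3A2, BPIFA1, MUC5AC, MUC5B and TFF3 were at 0 TPM in every library. Of 10 basal and squamous genes, KRT15 reached 1 TPM (1.53, 1.20 and 1.01 TPM). TP63, the basal factor, was at 0.0667 ± 0.0153 TPM, and KRT5, KRT6A and KRT14 had no reads in any library.

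**Figure D2:**
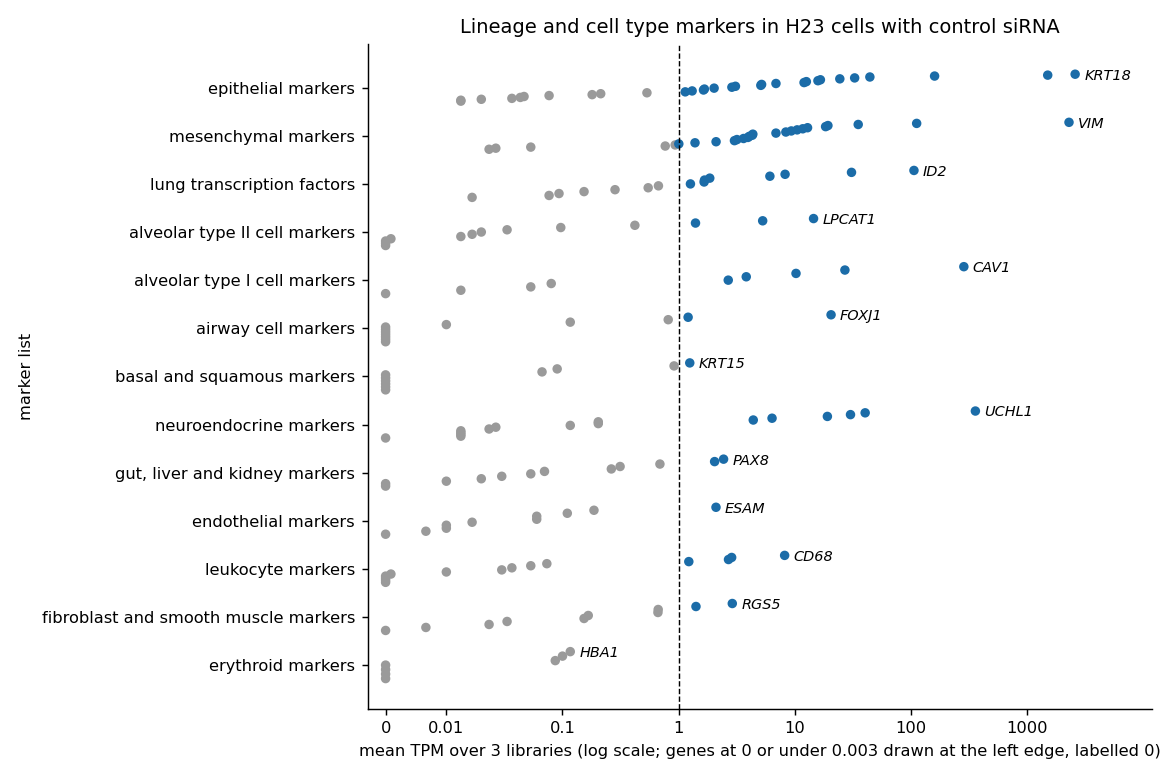
Mean TPM over the 3 libraries (x axis, log scale) of each gene in 13 marker lists (y axis), in blue at 1 TPM or more and in grey below, with the highest gene of each list named. Epithelial and mesenchymal lists both reach above 1000 TPM, while the alveolar type II, airway, basal, endothelial and erythroid lists lie mostly under 1 TPM.

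Epithelial and mesenchymal genes were expressed side by side. The simple keratins KRT18 and KRT8, which pair into the intermediate filaments of glandular epithelium, stood at 2611, 2809 and 2355 TPM and 1592, 1588 and 1334 TPM. VIM, the intermediate filament protein of mesenchymal cells, stood at 2263, 2415 and 2206 TPM, between the 2 keratins. The junction genes CLDN1 (149, 175 and 156 TPM), TJP1 (44.3 ± 2.55 TPM) and DSP (32.8 ± 2.70 TPM) were well above the threshold. CDH1, which encodes E-cadherin, was at 11.6, 12.1 and 12.3 TPM and CDH2, which encodes N-cadherin, at 6.46, 7.58 and 6.61 TPM. CDH1 exceeded CDH2 in each library. EPCAM, an epithelial adhesion molecule, was at 6.88 ± 1.06 TPM, KRT19 at 5.18 ± 0.432 TPM and KRT7 at 1.31 ± 0.287 TPM.

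In numbers, 20 of 30 epithelial genes and 21 of 26 mesenchymal genes reached 1 TPM. Among the epithelial genes that did not are the splicing factor ESRP1 (0.15, 0.19 and 0.2 TPM), the transcription factor GRHL2 (0.01, 0.03 and 0 TPM), CLDN7 (0.0467 ± 0.0416 TPM) and the protease ST14 (0.0433 ± 0.0513 TPM). ESRP2, the paralog of ESRP1, was at 5.10 ± 0.4 TPM, and GRHL1 at 3.08 ± 0.489 TPM. The transcription factors that repress epithelial genes were present: ZEB1 at 16.3, 19.5 and 19.4 TPM, TWIST1 at 12.7, 13.1 and 12.8 TPM and SNAI1 at 10.6, 11.2 and 9.58 TPM. SNAI2 was at 1.00 ± 0.239 TPM, at the threshold. Matrix genes ranged widely. The collagen chains COL5A2 and COL12A1 were at 32.7, 35.8 and 33.5 TPM and at 19.9, 22.7 and 21.5 TPM, the glycoprotein TNC at 19.3 ± 0.955 TPM and COL6A1 at 9.33 ± 0.563 TPM. COL1A1, at 3.95 ± 0.235 TPM, and its partner COL1A2, at 0.0267 ± 0.0153 TPM, were lower. SPARC, a collagen-binding protein, was at 0.0533 ± 0.0252 TPM and the proteoglycan DCN at 0.00667 TPM.

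Markers of other cell types were low. In bulk RNA a low level in every cell and a higher level in a few cells cannot be told apart. Of 10 endothelial genes, ESAM reached 1 TPM (2.10 ± 0.42 TPM), with PECAM1 at 0.01 TPM. Of 14 leukocyte genes 4 did: CD68 (8.18 ± 1.10 TPM), ITGAM (2.86 ± 0.262 TPM), CD14 (2.69 ± 0.237 TPM) and FCER1G (1.22 ± 0.86 TPM). PTPRC, which encodes the pan-leukocyte CD45, was at 0.00333 TPM, and CD3E, MS4A1 and TYROBP had no reads. None of 7 erythroid genes reached 1 TPM, and HBB had no reads. Of 10 fibroblast and smooth muscle genes, RGS5 (2.90 ± 0.241 TPM) and LUM (1.41 ± 0.118 TPM) passed. Among 12 gut, liver and kidney genes PAX8 (2.44 ± 0.0493 TPM) and CDX2 (2.04 ± 0.21 TPM) passed, while ALB was at 0.02 TPM.

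Of 16 neuroendocrine genes 6 reached 1 TPM, while 46.8% of all genes and 62.1% of protein-coding genes did. UCHL1, a neuronal deubiquitinase, was at 366, 351 and 359 TPM, and the granule proteins SCG2 and CHGB at 36.7, 40.5 and 43.9 TPM and 19.2, 18.9 and 19.1 TPM. DLL3, a Notch ligand of small cell lung cancer, was at 6.37 ± 0.949 TPM and synaptophysin (SYP) at 4.39 ± 0.0361 TPM. NEUROD1 and INSM1, markers of neuroendocrine tumours, each had a mean of 0.0133 TPM, as did the granule protein CHGA. The granule protein SCG3 and the decarboxylase DDC were each at 0.203 TPM, the adhesion protein NCAM1 at 0.117 TPM and CALCA, which encodes calcitonin, at 0.0233 TPM, while the peptide gene GRP had no reads.

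Genes often altered in lung cancer were mostly expressed, with 31 of 37 at 1 TPM or more. The growth signal relays NRAS and HRAS were at 84.7, 109.7 and 102 TPM and at 43.1, 40.6 and 35.4 TPM. NRAS exceeded HRAS in every library. MYC, a transcription factor of growing cells, was at 66.5, 66.5 and 58.8 TPM. CCND1, the cyclin of the G1 phase, was at 217, 239 and 207 TPM, and NFE2L2, the factor of the oxidative stress response, at 164, 178 and 181 TPM. Its negative regulator KEAP1 was at 56.1 ± 3.79 TPM. The kinase STK11 was at 13.5 ± 1.44 TPM and the chromatin remodeller SMARCA4 at 12.1 ± 0.57 TPM, with its paralog SMARCA2 at 0.74, 1.72 and 1.12 TPM. The kinases found as fusions in some lung tumours, ALK, RET, ROS1 and NTRK3, were at 0.263, 0.143, 0.02 and 0.06 TPM. TERT, the catalytic part of telomerase, was at 4.06, 3.33 and 3.39 TPM. FOXM1, a factor of dividing cells, was the highest forkhead gene, at 239.9 ± 14.3 TPM.

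Of 58 receptor tyrosine kinases, the surface receptors that respond to growth factors, 28 reached 1 TPM and 1 had no reads in any library. Among all genes 46.8% reached 1 TPM, and among protein-coding genes 62.1%. EPHA2, an ephrin receptor, was the highest at 194, 182 and 159 TPM. MET, the receptor for hepatocyte growth factor, was at 79.3, 99.7 and 96.9 TPM, and RYK, a WNT co-receptor, at 74.8, 85.1 and 84.5 TPM. The ranges of MET and RYK overlapped, and EPHA2 lay above both in every library. IGF1R was at 44.9 ± 3.66 TPM, the collagen receptor DDR1 at 37.3 ± 2.97 TPM and AXL at 35.2 ± 4.21 TPM. The EGF receptor family was led by EGFR at 22.6, 26.2 and 22.6 TPM and ERBB2 at 17.6, 16.6 and 15.4 TPM, with ERBB3 at 1.56 ± 0.242 TPM and ERBB4 at 0.0533 ± 0.00577 TPM. The FGF receptors FGFR1 and FGFR4 were at 15.4 ± 0.503 TPM and 12.5 ± 1.24 TPM, above FGFR2 (2.69 ± 0.301 TPM) and FGFR3 (1.57 ± 0.257 TPM). KIT was at 9.46, 11.1 and 11.3 TPM. The endothelial receptors KDR, TEK and TIE1 were at 0.01, 0.00667 and 0.0167 TPM.

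**Figure D3:**
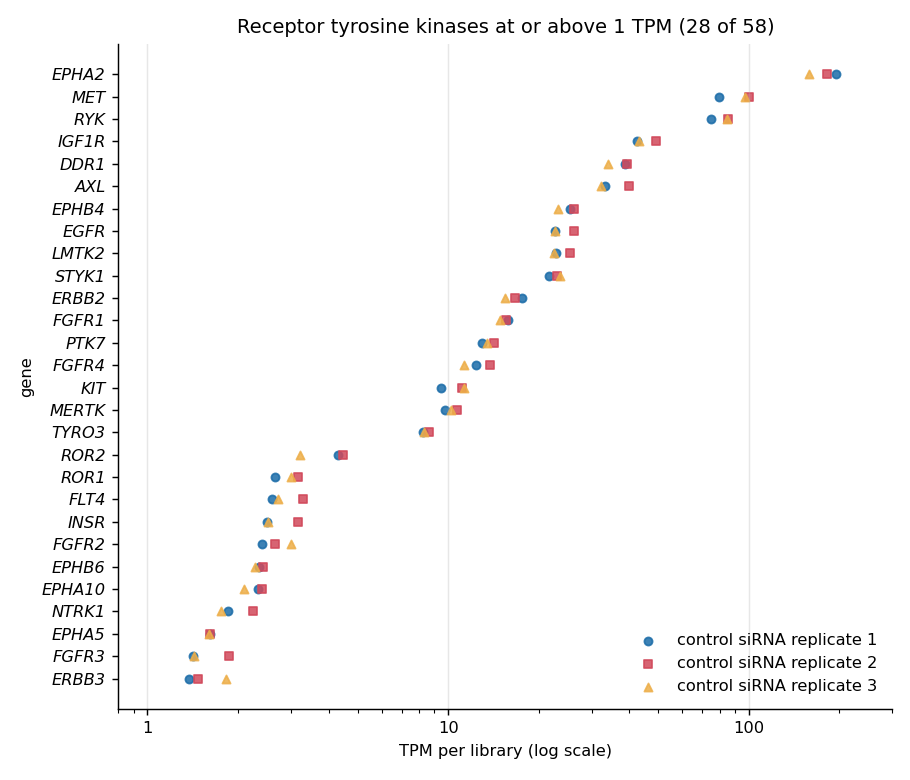
TPM in each of the 3 control siRNA libraries (x axis, log scale) of the 28 receptor tyrosine kinases at or above 1 TPM (y axis). EPHA2 lies above the other 27 in every library, and the libraries of neighbouring kinases often overlap.

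Ligands of several of these receptors were also present, among 33 of 50 growth factor genes at 1 TPM or more. Those that bind the EGF receptor family were epigen (EPGN, 21.6 ± 1.95 TPM), neuregulin 1 (NRG1, 20.9 ± 2.13 TPM), epiregulin (EREG, 18.5 ± 2.48 TPM), amphiregulin (AREG, 9.58 ± 1.08 TPM), HBEGF (7.68 ± 0.341 TPM), neuregulin 2 (NRG2, 2.49 ± 0.155 TPM) and TGFA (1.42 ± 0.0513 TPM). EGF itself was at 0.02 TPM. HGF, the ligand of MET, was at 2.82, 4.15 and 4.28 TPM, KITLG, the ligand of KIT, at 3.14, 4.31 and 4.16 TPM, and GAS6, the ligand of AXL, at 3.33 ± 0.24 TPM. The highest members of the list were CYR61 (142, 138 and 118 TPM) and CTGF (88.7, 90.3 and 72.4 TPM), matricellular proteins and textbook targets of the YAP pathway. VEGFA, which acts on endothelium, was at 50.5 ± 1.62 TPM, and FGF5 at 10.7 ± 1.37 TPM. WNT2 was the highest of 19 WNT ligands at 53.5, 52.1 and 57.6 TPM; the next, WNT3, was at 3.78 ± 0.165 TPM.

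Of 52 cytokine receptors 31 reached 1 TPM, against 46.8% of all genes and 62.1% of protein-coding genes. Subunits of the interleukin 6 family were high, with the oncostatin receptor OSMR at 64.8, 71.6 and 65.7 TPM, the shared subunit IL6ST (gp130) at 43.6, 59.6 and 53.3 TPM and LIFR at 12.2, 16.7 and 14.01 TPM. LIF, a ligand for LIFR and IL6ST, was at 69.2, 61.9 and 59.04 TPM, while IL6 was at 0.31 TPM and the specific subunit IL6R at 4.36 ± 0.244 TPM. The interferon gamma receptor chains IFNGR2 and IFNGR1 stood at 135 ± 2.78 TPM and 51.6 ± 4.74 TPM, and the type I chains IFNAR2 and IFNAR1 at 40.9 ± 3.37 TPM and 21.7 ± 2.48 TPM. The lymphocyte chains IL2RA, IL5RA and IL12RB1 had no reads. STAT3, which transmits signals from such receptors, was at 122.96 ± 2.31 TPM, against 0.16 TPM for STAT4 and 0.16 TPM for STAT5A.

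The TNF receptor superfamily had 14 of 29 members at 1 TPM or more. Of all genes 46.8% reached that level, and of protein-coding genes 62.1%. TNFRSF12A, the TWEAK receptor, was at 201, 179.8 and 168 TPM, and TNFRSF1A, the broadly expressed TNF receptor, at 146, 143 and 129 TPM. The TRAIL receptors differed among themselves: the decoy TNFRSF10D at 78.6, 83.1 and 77.5 TPM and the death receptor TNFRSF10B at 75.2, 74.6 and 74.2 TPM were above the death receptor TNFRSF10A at 28.7, 27.4 and 24.7 TPM. The decoy TNFRSF10C was at 0.143 TPM. LTBR, the lymphotoxin beta receptor, was at 0.17, 0.09 and 0 TPM. FAS was at 11.9 ± 1.01 TPM.

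Among other receptors, NOTCH2 was at 103, 117 and 101 TPM, over NOTCH1 at 9.88, 9.62 and 8.07 TPM in every library. TGFBR1 and TGFBR2, the core receptors for TGF-beta, were at 40.5 ± 6.84 TPM and 23.6 ± 1.12 TPM, and the WNT co-receptors LRP6 and LRP5 at 33.6 ± 3.28 TPM and 15.6 ± 1.73 TPM. In counts, 10 of 14 TGF-beta family receptors and 11 of 15 WNT receptors passed 1 TPM. Of 26 integrins 14 passed, while 46.8% of all genes and 62.1% of protein-coding genes did. The highest was ITGB1, the shared beta chain, at 619, 721 and 686 TPM. Its alpha partners ITGA5 (80.5 ± 8.20 TPM), ITGAV (74.7 ± 8.69 TPM), ITGA6 (63.3 ± 7.24 TPM), ITGA2 (61.6 ± 5.18 TPM) and ITGA3 (54.95 ± 4.53 TPM) lay close together. ITGB6, the beta chain of activated lung epithelium, was at 0.0667 TPM.

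Of 356 non-sensory G protein-coupled receptors, 83 reached 1 TPM, 21 reached 10 TPM and 96 had no reads. GPRC5A, an orphan receptor abundant in lung, was the highest at 150.2, 151 and 145 TPM. F2RL1, a receptor cleaved by trypsin-like proteases, was at 98.5, 102 and 99.3 TPM, and the adhesion receptors ADGRG6 and ADGRE5 at 79.2 ± 9.11 TPM and 66.7 ± 5.90 TPM. NTSR1, the neurotensin receptor, was at 54.2, 53.7 and 43.2 TPM. These 5 were the top of the family, and replicates of GPRC5A and F2RL1 did not overlap.

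Nuclear receptors, the ligand-controlled transcription factors, numbered 27 of 48 at 1 TPM or more. The shares were 46.8% for all genes and 62.1% for protein-coding genes. The orphan receptors NR4A2 (64.4, 72.5 and 76.1 TPM), NR4A1 (63.3, 61.3 and 63.5 TPM) and NR2F6 (63.1, 59.9 and 60.99 TPM) led the list. NR1H2, an oxysterol receptor, was at 45.8 ± 4.10 TPM, and NR3C1, the glucocorticoid receptor, at 24.3 ± 2.62 TPM. The vitamin D receptor VDR was at 3.63, 3.75 and 2.97 TPM, while CYP24A1 and CYP27B1, which degrade and activate vitamin D, stood at 21.1, 21.3 and 22.2 TPM and 15.2, 15.9 and 15.1 TPM. The sex steroid receptors ESR1 and PGR were at 0.05 and 0.02 TPM, under 1 TPM in every library. NR1I2 and NR1H4, the xenobiotic and bile acid receptors, had no reads.

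Antigen presentation by class I molecules was expressed, with B2M, the class I light chain, at 455.8, 495 and 505 TPM and the peptide transporter TAP1 at 196, 203 and 179 TPM. HLA-B and HLA-C were at 130.1 ± 7.09 TPM and 109 ± 5.91 TPM. TAP1, HLA-B and HLA-C lie in a region that the annotation holds in several copies, among which reads were divided and then summed by gene. Class II genes were low. HLA-DRB1 was the highest of the 4 listed, at 1.78, 1.87 and 1.52 TPM from 34, 34 and 30 expected counts, HLA-DPA1 was at 0.29 TPM, HLA-DRA at 0.0167 TPM, and HLA-DQA1 had no reads. The class II chaperone CD74 was at 0.11 TPM and the activator CIITA at 0.00667 TPM. CD274, which encodes PD-L1, was at 0.78, 0.38 and 0.43 TPM. The DNA sensor CGAS was at 57.1, 65.6 and 57.98 TPM, while TMEM173, which encodes its adaptor STING, was at 0.8, 0.71 and 0.75 TPM. TMEM173 was thus under 1 TPM in every library. Of 38 chemokines and interleukins 12 passed, led by the chemokines CCL20 (460.4, 471 and 503 TPM) and CCL2 (112, 102 and 117 TPM). CXCL8, which attracts neutrophils, was at 13.4 ± 0.297 TPM, and IL18 at 33.9 ± 1.54 TPM.

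Several large families were nearly silent. Of 422 olfactory receptor genes 362 had no reads in any library and 4 reached 1 TPM, led by OR2A20P (3.24, 3.76 and 2.74 TPM) and OR2A9P (3.40, 3.13 and 2.72 TPM), both named as pseudogenes. Among 93 keratin-associated proteins of hair 70 had no reads, 2 passed, and KRTAP2-3 was the highest at 6.96, 8.35 and 6.68 TPM. None of 52 defensins, 18 late cornified envelope proteins, 17 type I interferons or 21 UDP-glucuronosyltransferases passed, and 47, 13, 12 and 18 of them had no reads. The highest type I interferon was IFNE, an epithelial member, at 0.46, 0.66 and 0.73 TPM. Of 57 keratins 30 had no reads and 8 passed; after KRT18 and KRT8 the next was KRT10 at 20.8 ± 2.51 TPM. By contrast 420 of 533 zinc finger genes named ZNF and 200 of 376 solute carriers passed.

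**Figure D4:**
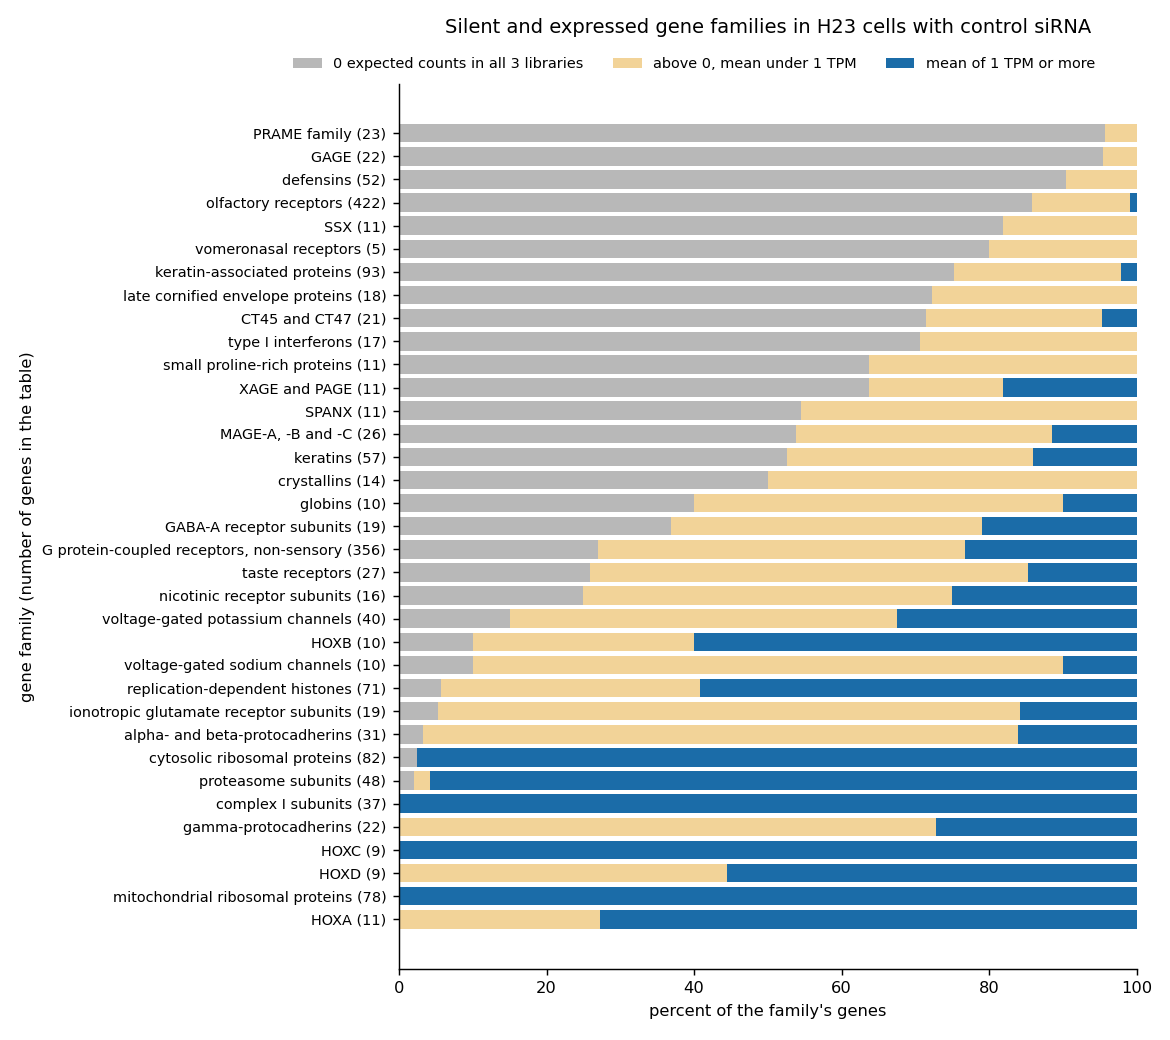
Share of each family's genes (x axis, percent) with 0 expected counts in all 3 libraries (grey), above 0 with a mean under 1 TPM (yellow) and at 1 TPM or more (blue), for the families named on the y axis with the number of genes. The PRAME family, GAGE genes, defensins and olfactory receptors are mostly grey, and the ribosomal, complex I and HOXC families mostly or wholly blue.

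Cancer-testis genes, which are normally restricted to germ cells, were switched on member by member. Of 26 MAGE-A, -B and -C genes 14 had no reads and 3 passed: MAGEA4 at 466, 526 and 464 TPM, MAGEA3 at 136, 143 and 131 TPM and MAGEA6 at 108, 111 and 103 TPM. The next highest, MAGEC3, was at 0.09 TPM, so no member had a mean between that level and 107 TPM. MAGEA3 and MAGEA6 are near-identical, and the split of reads between them is uncertain. XAGE1A and XAGE1B, copies with equal counts in every library, stood at 887, 756 and 808 TPM each. All 22 GAGE genes and all 11 SSX genes were under 1 TPM, with 21 and 9 without reads. PRAME itself, chosen after its values were seen, was at 106 ± 0.834 TPM, while 22 of the 23 PRAME family genes had no reads.

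Developmental regulators differed in level from member to member. All 9 HOXC genes in the table passed 1 TPM, against 8 of 11 HOXA, 6 of 10 HOXB and 5 of 9 HOXD genes. Over all genes 46.8% did, and over protein-coding genes 62.1%. HOXC10 was the highest at 59.1, 62.6 and 57.2 TPM, then HOXC13 at 20.2, 20.6 and 20.98 TPM and HOXB7 at 15.2, 14.7 and 14.4 TPM. HOTAIR lies in the HOXC cluster, between HOXC11 and HOXC12, on the opposite strand. HOXC11 was at 5.75 ± 0.289 TPM. GATA3 and GATA2 were at 41.99, 40.01 and 37.2 TPM and 30.2, 29.04 and 27.1 TPM, over GATA6 at 0.67 TPM, the member used by lung epithelium. The polycomb methyltransferase EZH2 was at 63.2 ± 1.99 TPM with its partners SUZ12 (69.5 ± 8.79 TPM) and EED (28.5 ± 2.36 TPM). DNMT1, the maintenance DNA methyltransferase, was at 121 ± 3.77 TPM, over DNMT3A at 8.83 ± 0.386 TPM.

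HOTAIR, the long non-coding RNA of that cluster, was at 4.19, 3.87 and 4.87 TPM, from 169, 148 and 202 expected counts, and ranked 10378 of 27968 genes. HOTAIR was thus above 1 TPM and under 10 TPM in every library. The long non-coding RNAs with the highest levels in the list were the small nucleolar RNA hosts SNHG5 (508, 439.7 and 513 TPM) and GAS5 (151 ± 5.52 TPM), and DANCR (237 ± 17.4 TPM). NEAT1, the scaffold of paraspeckles, was at 64.1, 68.3 and 65.97 TPM, and MALAT1, of nuclear speckles, at 9.78, 16.1 and 11.8 TPM. MALAT1 had a coefficient of variation of 25.7%, among the 10 highest of the 8331 genes of at least 10 TPM and 200 nt effective length. The imprinted MEG3 and H19 were at 14.97 ± 0.968 TPM and 13.3 ± 0.62 TPM.

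RNAs without a poly(A) tail were scarce in libraries labelled as total RNA. Of 28 such RNAs listed 14 were in the table, and 6 of these had no reads, including TERC, the telomerase RNA, and RNU11 and RNU12 of the minor spliceosome. RPPH1, the RNA of ribonuclease P, was at 2.58, 1.38 and 0.93 TPM, and RMRP at 3.33, 0.59 and 0 TPM. The 71 replication-dependent histone genes took 0.0723 ± 0.0055% of TPM, and the highest was HIST1H2BK at 315 ± 19.04 TPM. Of 1840 microRNA genes 1820 had no reads, and 1751 had an effective length of 0 in every library. Over all kinds of gene 2107 had that length, of which 2081 had no reads, so their silence is not a measurement of expression.

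A few genes were less certain between replicates. Median coefficients of variation were 10.2% for genes at 1 to 10 TPM, 7.02% at 10 to 100, 5.52% at 100 to 1000 and 5.06% at 1000 TPM or more. RPL21, a ribosomal protein with many pseudogenes, had the highest among the 8331 genes of at least 10 TPM and 200 nt effective length, 53.0%, at 186, 55.5 and 129.5 TPM. PYCARD, the inflammasome adaptor, followed at 19.7, 13.8 and 10.7 TPM, and the read-through gene NME1-NME2 at 24.2, 14.3 and 15.5 TPM. All 3 were highest in replicate 1. The lowest in replicate 1 relative to the others were PHOSPHO2 (7.80, 11.5 and 11.9 TPM), GMFB (52.7, 87.2 and 70.7 TPM) and the read-through gene COMMD3-BMI1 (14.7, 23.9 and 19.9 TPM).

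Isoform shares were taken as the percentage of a gene's TPM. Of 8294 genes with 2 or more isoforms and at least 1 TPM, the top isoform held at least 80% in 3776 (45.5%) and under 50% in 1212 (14.6%). Its median share was 76.9% (quartiles 57.2 and 93.0%), and 90.5% in the 2874 genes with 2 isoforms. The top isoform was the same in all 3 libraries for 7107 genes (85.7%). Of the 10 abundant genes with the lowest top share, 9 (TAP1 among them) have entries copied under 1 RefSeq name, where reads are divided over identical sequences. TRIP12, a ubiquitin ligase with 26 entries, was the tenth, with a top share of 20.7, 24.4 and 16.8%.

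**Figure D5:**
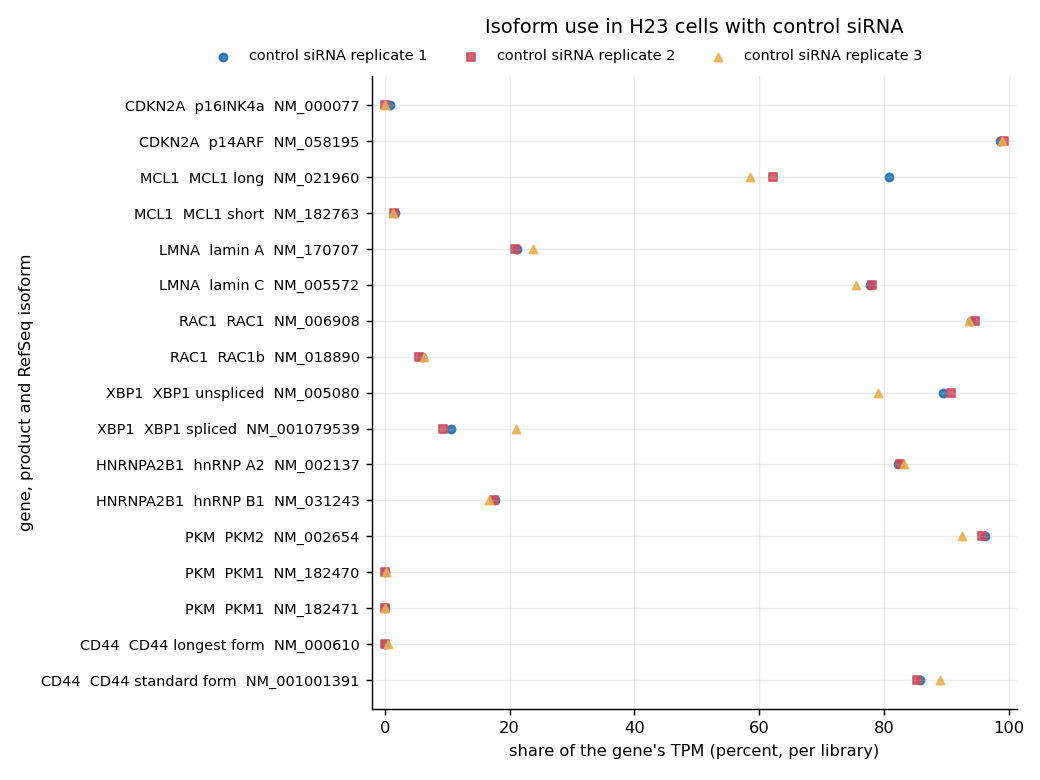
Share of the gene's TPM (x axis, percent) held by named isoforms (y axis) in each of the 3 control siRNA libraries. p14ARF, PKM2 and the RAC1 form without the insert hold over 90% in every library, while of the genes drawn MCL1 and XBP1 spread most between libraries.

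CDKN2A encodes 2 unrelated tumour suppressors from different first exons, the kinase inhibitor p16INK4a and the MDM2 inhibitor p14ARF. In H23 the p14ARF message held 98.6, 99.3 and 98.9% of the gene, and p16INK4a 0.91, 0 and 0%. In expected counts p14ARF had 517, 385 and 511, and p16INK4a 5.27, 0 and 0. PKM was 94.8 ± 1.9% PKM2, the form of proliferating cells, and 0.11% PKM1. LMNA was 77.1 ± 1.4% lamin C and 21.9% lamin A. CD44 was 86.7 ± 2.0% the standard form without variable exons. MCL1, an inhibitor of apoptosis, was 80.9, 62.2 and 58.5% the long form, with replicate 1 apart from the others, and 1.51 ± 0.15% the short form. A further MCL1 entry, whose product is not named here, held the rest, at 17.45, 36.4 and 40.1%.

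For 3 genes the isoforms differ by a short insert, printed here because its presence is what the shares measure. The sequences are those of GENCODE transcripts paired with the RefSeq names, with the insert in capitals and 15 bases on each side. Each insert begins with the same base or bases as the stretch after it. Its length is therefore fixed but its ends are not, and the leftmost placement is marked, so the bases removed or added may lie further right.
RAC1b insert, 57 nt: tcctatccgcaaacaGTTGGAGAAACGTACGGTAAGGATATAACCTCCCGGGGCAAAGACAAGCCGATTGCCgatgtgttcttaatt
XBP1 unspliced form, 26 nt removed on splicing: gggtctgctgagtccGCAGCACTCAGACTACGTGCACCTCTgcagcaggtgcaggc
hnRNP B1 insert, 36 nt: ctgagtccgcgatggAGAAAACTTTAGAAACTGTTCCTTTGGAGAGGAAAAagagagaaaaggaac
The RAC1b insert, which makes the RAC1 GTPase self-activating, was in 5.99, 5.44 and 6.33% of RAC1, or 30.2 ± 2.2 TPM. XBP1 loses its 26 nt when the stress sensor IRE1 cuts it in the cytoplasm, and the spliced form held 10.6, 9.3 and 21.0%, highest in replicate 3. In TPM the spliced form was at 6.09, 6.16 and 12.4 and the unspliced form at 51.4, 60.1 and 46.7. The hnRNP B1 insert, at the start of the protein, was in 17.7, 17.5 and 16.8% of HNRNPA2B1, and the rest was hnRNP A2.

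The top isoform differed between libraries in the remaining genes. The largest shifts among genes of at least 20 TPM were in KRIT1, where the leading entry of 34 held 63.7, 0.08 and 69.6%, and in PARG, where the leading entry held 0.01, 58.6 and 56.9%. The gene totals moved far less, at 36.5, 40.7 and 41.3 TPM for KRIT1 and 21.5, 23.6 and 22.6 TPM for PARG. F8A1 is held in 3 identical copies, and the second of them took 52.3, 0 and 47.2% while the last took 0.25, 47.5 and 0%. For such genes a change of isoform and a different division of shared reads cannot be told apart.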

How the data were processed

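RNA was sequenced from 3 control siRNA transfections of H23 cells on an Illumina HiSeq. Per the submitters' processing notes, the tools were STAR 2.6.0c and RSEM 1.3.0 on hg19. Which annotation was used, and whether strand was taken into account, is not given here. The authors deposited expected counts, TPM and FPKM per gene and per isoform, and the isoform share as a percent of the gene. Expected counts are estimates, and 10.7 to 11.1% of gene values were not whole. They were rounded for edgeR 4.0.16 in R 4.3.3, which estimated the coefficient of variation with an intercept only, TMM scaling and its default filter, and was tested on simulated data. TPM was averaged over libraries in Python 3.11.15 with pandas 2.3.3, with no pseudocount and no test, since only 1 group was described. FPKM served as an alternative unit. Gene kinds came from RefSeq for 27005 of 27968 symbols. Promoters came from RefSeq GRCh38.p14 for 14775 protein-coding genes, using the first listed start; the coordinates printed are those of these promoters on GRCh38.p14, and none are given on hg19, the deposited build. Mean levels of genes that share reads with copies are uncertain.

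Named genes are the 25 of highest TPM with an effective length of at least 200 nt, leading members of each list or family (any member of a list of at most 16), genes of extreme replicate spread, named isoforms, and lung cancer genes with HOTAIR. The members and lists were chosen with earlier results of these data known. A few other members are named to show the low end of a list and were chosen after their values were seen. Some members are counted in their lists but not reported by name here.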

Additional observations from a re-analysis of the deposited data

How the results depend on the processing

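The number of genes at 1 TPM or more ran from 11887 at a threshold of 2 TPM to 14217 at 0.5 TPM. Receptor tyrosine kinases ran from 24 to 36, nuclear receptors from 22 to 30 and G protein-coupled receptors from 67 to 96 over the same alternatives, FPKM included. Genes at 0 rose from 7769 to 11309 when a mean under 0.1 TPM was asked for, and to between 8266 and 8355 when a replicate was left out. The 100 most abundant genes held 18.4% of expected counts against 31.7% of TPM, since counts are not divided by length. At a threshold of 50%, the top isoform qualified in 7082 genes in place of 3776, and summing entries copied under 1 RefSeq name, an alternative chosen after seeing the data, gave 3765. Leaving out a replicate moved the biological coefficient of variation between 4.86 and 8.31%, lowest without replicate 1, and the cause was not tested. No paired analysis was possible because the values come from no test and a single group was described. Depth limits genes under about 1 TPM, where a few counts set the value, and 3 libraries limit every SD.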

Other observations

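Genes of excitable cells were expressed member by member in H23 cells with control siRNA. Of 40 voltage-gated potassium channel genes 13 reached 1 TPM, among them KCNC4 at 19.8, 20.04 and 17.9 TPM. Of 10 voltage-gated sodium channel genes 1 did so, SCN8A at 4.63, 4.67 and 4.94 TPM. Of 16 nicotinic receptor genes 4 passed: CHRNB1, the muscle-type beta subunit (20.1, 20.02 and 19.98 TPM), CHRNA5 (7.05, 8.48 and 8.14 TPM), CHRNA7 (2.99 ± 0.214 TPM) and CHRNA10 (1.02 ± 0.189 TPM). Of 19 GABA-A receptor genes 4 passed, led by the delta subunit GABRD at 6.64, 6.49 and 5.07 TPM. Of 31 alpha- and beta-protocadherins 5 passed, and all 5 were alpha-protocadherins, with PCDHAC1 at 9.33, 9.74 and 8.97 TPM. Of 22 gamma-protocadherins 6 passed, led by PCDHGB5 at 4.27 ± 0.611 TPM.

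Regulators of other organs were present at a range of levels. PAX6, a factor of eye and pancreas, was at 7.67, 7.27 and 7.44 TPM, PAX9 at 4.49 ± 0.559 TPM and PAX3, a factor of neural crest and muscle, at 3.62 ± 0.422 TPM. The cardiac factor NKX2-5 was at 9.68, 7.54 and 6.35 TPM and the pancreatic factor NKX6-1 at 4.84, 4.79 and 4.92 TPM, both above the lung factor NKX2-1 at 1.19, 1.54 and 1.06 TPM in every library. GATA4, of heart and gut, was at 6.74, 6.46 and 5.68 TPM. FOXE1, of thyroid, was at 34.9, 40.5 and 35.7 TPM and FOXC1, of mesoderm, at 41.8, 46.4 and 49.9 TPM. LHX2, of forebrain, led the LIM homeobox genes at 11.3 ± 0.413 TPM.

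Several small nucleolar RNAs differed widely in TPM between libraries, but in short genes few counts can stand for a high TPM. Genes under 200 nt effective length took 1.70% of TPM and 0.149% of expected counts. SNORA73B, for instance, was at 12.4, 5.34 and 10.6 TPM from 10, 4 and 9 expected counts. Counting noise was not separated from other spread for the RNAs below, whose counts are not given here. SNORD140 was at 104, 56.3 and 26.4 TPM, SNORA5A at 75.6, 70.3 and 10.7 TPM and SNORD22 at 51.5, 37.2 and 0 TPM, each lowest in replicate 3. Of the other 5 leading members, SNORA70 (61.5, 77.8 and 81.4 TPM), SNORA63 (51.2, 33.3 and 61.03 TPM), SCARNA12 (40.3, 28.6 and 44.6 TPM) and SNORA40 (32.2, 17.5 and 48.6 TPM) were highest in replicate 3, and SNORA67 (37.01, 20.1 and 36.6 TPM) was highest in replicate 1. Of 552 small nucleolar and Cajal body RNA genes 461 had 0 expected counts in every library.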
